A study of Mus musculus with 6 samples.

Results

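The genes described are osteocalcin, 4 secreted proteins of the bone matrix and 2 transcription factors of osteoblasts, taken by symbol from a table of 39179 genes. They are Bglap, Bglap2 and Bglap3 (the osteocalcin genes), Ibsp (bone sialoprotein), Spp1 (osteopontin), Sparc (osteonectin), Mgp (matrix Gla protein), Runx2 and Sp7 (osterix). All 9 symbols were found once, and 8 of the 9 passed a filter on low values, which asked for at least 0.5 RPKM (reads scaled by gene length and library total) in at least 2 of the 6 libraries. RNA came from Ocy454 cells, a mouse osteocytic line that the study used as a single-cell subclone, grown to confluence at 33 °C and then kept at 37 °C for 14 days. Cells received vehicle (PBS with 25 mM HCl), 1 nM PTH 1-34 (parathyroid hormone) or 0.5 µM YKL-05-093 (a small-molecule inhibitor of salt-inducible kinases) for 4 h, with 2 libraries per condition. No genotype differs between the conditions, and the labels name 1 vehicle for both agents. The study's methods state DMSO as the solvent of compounds given to cells, so the solvent of the YKL-05-093 libraries is not clear, and an effect of solvent and of YKL-05-093 cannot be told apart. The labels do not say that the 2 libraries of a condition came from separate cultures, so the p-values measure the spread between libraries, which may be technical.

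Bone matrix is mostly type I collagen, laid down by osteoblasts together with a smaller set of secreted proteins that bind collagen, mineral or cells. Osteocalcin and matrix Gla protein carry Gla residues, which a vitamin K-dependent carboxylase makes and which bind calcium: osteocalcin is a late marker of osteoblasts, and matrix Gla protein keeps soft tissues and cartilage from calcifying. Bone sialoprotein and osteopontin are acidic phosphoproteins that bind integrins, and osteonectin binds collagen. Runx2 is the transcription factor that commits cells to the osteoblast lineage, and Sp7, a zinc finger factor, is needed downstream of it. PTH acts on osteoblasts and osteocytes through a receptor that raises cAMP, and the study asked how far inhibition of salt-inducible kinases changes the same genes as the hormone.

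The osteocalcin genes lie on chromosome 3 within 15849 bases of each other, all on the minus strand (GRCm38, GENCODE M21 annotation). Bglap spans chr3:88383501-88384464, Bglap2 spans chr3:88377736-88378699, and Bglap3 spans chr3:88368616-88372743. Their coding sequences are shown first, since these near-identical copies limit how well reads can be assigned to one of them. The first 90 of 285 coding bases of each are given from the ATG, with capitals at the positions where the 3 genes do not all carry the same base.
Bglap: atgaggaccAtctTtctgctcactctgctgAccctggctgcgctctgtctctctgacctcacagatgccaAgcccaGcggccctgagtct
Bglap2: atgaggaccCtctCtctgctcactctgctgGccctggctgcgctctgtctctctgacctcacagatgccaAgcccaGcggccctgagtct
Bglap3: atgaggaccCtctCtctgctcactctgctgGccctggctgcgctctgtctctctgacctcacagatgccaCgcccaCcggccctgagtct
Counted from the A of the ATG, and with the Bglap2 base first, Bglap differs from Bglap2 by C10A, C14T, G31A and C273T, so 281 of 285 coding bases are equal (98.6%). Bglap3 differs from Bglap2 at 9 coding bases, of which A71C and G77C lie in the printed stretch, and the identity is 96.8%. Of the 391 windows of 50 bases in the Bglap transcript, 292 (74.7%) also occur in the Bglap2 transcript. The study sequenced pairs of 50-base reads. A pair can be assigned where either read is unique, which single windows do not count. The values of Bglap and Bglap2 are therefore uncertain as values of single genes: how the counting treated reads that map to both was not given in the sources used here.

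The other members lie apart from each other, except that Ibsp (chr5:104299171-104311469, plus strand) and Spp1 (chr5:104435118-104441050, plus strand) are separated by 123648 bases. Sparc lies at chr11:55394500-55423183, Mgp at chr6:136872435-136875823, Runx2 at chr17:44495987-44814797 and Sp7 at chr15:102356606-102367182, all on the minus strand. Runx2 shares 519 exonic bases with the antisense RNA Runx2os1, which had between 0.265 and 0.633 RPKM in the 6 libraries. Whether the counting used the strand is not stated, and without strand the reads of both could not be told apart there. Within 100 kb of Bglap, 8 of 19 annotated genes were tested, and Bglap2 was the 1 gene among them called after PTH by the rule given below. No gene called after PTH lay within 100 kb of Ibsp, Spp1, Sparc, Mgp, Runx2 or Sp7, where 1, 3, 2, 4, 2 and 10 genes were tested.

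Promoter sequence was available from RefSeq (GRCm38.p6) for 6 of the 9 genes, as 9 windows of 250 bases before a RefSeq start site. They are shown because Runx2, one of the members, binds the letters ACCACA. On either strand (TGTGGT on the other), these letters occurred in 3 of the 9 windows, those of Bglap, of the first Spp1 start and of Runx2 itself, and in 14.0% of all 32851 windows in the table. The 250 bases before the RefSeq start of Bglap (chr3:88384467-88384716, minus strand) and before the first of Spp1 (chr5:104434861-104435110, plus strand) follow, with the match in capitals.
Bglap: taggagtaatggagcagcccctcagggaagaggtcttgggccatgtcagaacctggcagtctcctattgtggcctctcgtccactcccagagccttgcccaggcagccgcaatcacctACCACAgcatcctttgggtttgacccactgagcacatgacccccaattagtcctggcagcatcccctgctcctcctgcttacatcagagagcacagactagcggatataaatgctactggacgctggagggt
Spp1: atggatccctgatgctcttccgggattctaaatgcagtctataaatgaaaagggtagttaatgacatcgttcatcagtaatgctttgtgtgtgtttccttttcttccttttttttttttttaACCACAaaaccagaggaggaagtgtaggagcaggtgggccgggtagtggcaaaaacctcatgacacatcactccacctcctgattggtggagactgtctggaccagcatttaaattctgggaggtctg
In Bglap the match runs from 132 to 127 bases before the start, and in Spp1 from 128 to 123. For Runx2 the match lies 80 to 75 bases before the RefSeq start (chr17:44814690-44814719, minus strand, for the 30 bases shown), and Ibsp holds TGACG, the core of a cAMP response element, 79 to 75 bases before its RefSeq start (chr5:104299196-104299225, plus strand). Both RefSeq starts lie inside the GENCODE gene spans given above, so these stretches are within the annotated genes and not upstream of them.
Runx2: gtgaggtcacaaACCACAtgattctgtctc
Ibsp: gaacccacagccTGACGttgtgctggccac
TGACG or its complement was found in 1 of the 9 windows against 17.8% of all windows, and GGGCGG, a GC box of the kind that Sp family factors bind, in 0 of 9 against 32.7%. None of these 3 motifs overlapped another in these windows. These matches are strings of letters only and do not show binding.

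The library totals behind the RPKM values, worked back from the steps between values, ranged from 17505798 to 27983585 reads. They are not the sequencing depth that the study states. The libraries of a condition differed by a median of 0.33 on the log2 scale over 14264 genes in the vehicle group, against 0.11 in the PTH group and 0.10 in the YKL-05-093 group, so comparisons with vehicle rest on the widest spread. Of 15 markers of the osteoblast lineage and osteocytes, 12 passed the filter on low values. The mature osteocyte markers Sost (0 to 0.0519 RPKM), Mepe (0 to 0.136) and Fgf23 (0 to 0.0544) did not. Markers of other cells summed to at most 3.91 RPKM for chondrocytes (5 genes, 2 past the filter), 3.85 for adipocytes (5 and 2), 0.663 for muscle (5 and 0) and 2.17 for endothelium (4 and 1). The 6 haematopoietic and osteoclast markers, of which 2 passed the filter, summed to between 78.1 and 99.2 RPKM. The 2 were the protease gene Ctsk, at 74.1 to 94.7 RPKM, and Cd68, at 3.69 to 4.42 RPKM. Ptprc was at 0.0129 to 0.0263 RPKM and Acp5 at 0 in the vehicle and PTH libraries. In bulk RNA of this kind, fewer cells of a type and less RNA per cell cannot be told apart.

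Per length, Sparc was the highest member in vehicle cells, at 871 ± 155 RPKM (SD, n = 2), which placed it at rank 54 of the genes that passed the filter. Ibsp (303 ± 15.4), Mgp (164 ± 45.2), Spp1 (70.2 ± 10.02) and Sp7 (45.8 ± 0.348) followed in that order, with no overlap between neighbours. Bglap2 (22.2 ± 7.15 RPKM) and Runx2 (16.3 ± 4.61) had overlapping ranges, so their order was not beyond their spread, and Bglap (9.04 ± 3.44) came after both. After PTH the order became Sparc, Mgp, Ibsp, Spp1, Bglap2, Bglap, Sp7, Runx2 and Bglap3, with no overlap between neighbours. Mgp thus moved from rank 344 in vehicle to rank 79 after PTH among the genes that passed the filter, and Sp7 from rank 1418 to rank 4998. After YKL-05-093 the order was Sparc, Ibsp, Mgp, Spp1, Bglap2, Sp7, Runx2, Bglap and Bglap3, and Runx2 overlapped Bglap.

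**Figure D1:**
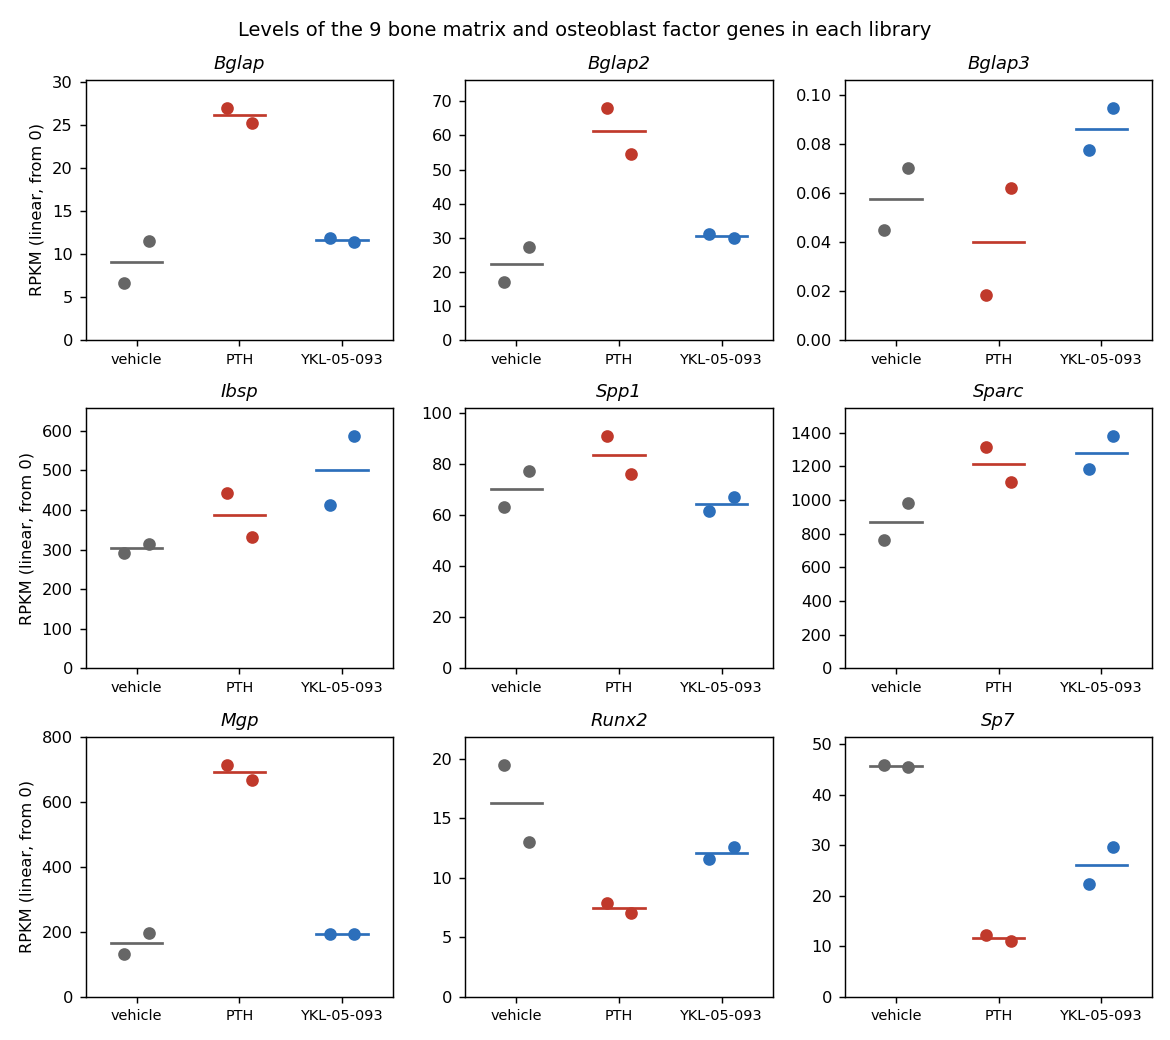
RPKM of each of the 9 genes in each of the 6 libraries on linear axes from 0, with points for libraries and a bar at the mean of the 2 libraries of a condition. The PTH libraries stand above all others for Bglap, Bglap2 and Mgp and below all others for Runx2 and Sp7, and the scale for Bglap3 ends near 0.1 RPKM.

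Osteocalcin and matrix Gla protein RNA rose after PTH, and Sp7 RNA fell. A gene was called when limma's moderated test on log2(RPKM + 0.1), with Benjamini-Hochberg adjustment over all genes tested, gave an adjusted p under 0.05 and the change was over 2-fold. By this rule 4 of the 8 tested members were called for PTH against vehicle, 3 higher and 1 lower. Those higher include both Bglap and Bglap2, whose values are uncertain as values of single genes, so these calls may not be separate. Of all 14261 genes tested, 1.91% were called, 1.09% higher and 0.813% lower. The libraries of both conditions did not overlap for 7 of the 8, against 43.1% of all genes.

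Bglap, which encodes osteocalcin, had 6.61 and 11.5 RPKM with vehicle, 27.1 and 25.3 with PTH and 11.9 and 11.4 with YKL-05-093. Its reads numbered 71 to 359 per library. Both PTH libraries were more than 2-fold above the higher vehicle library, while the YKL-05-093 libraries lay around it. The PTH mean was 26.2 ± 1.26 RPKM (SD, n = 2), 2.90-fold the vehicle mean, with a log2 fold change of 1.58 ± 0.26 (SE) and an adjusted p of 0.0283 by limma. The call was lost with no filter on low values (adjusted p 0.212), when the prior spread followed the mean log2 value in place of reads (0.0782) and after median centring of the libraries (0.0699).

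Bglap2, the second osteocalcin gene and the higher of the pair in every library, had 17.1 and 27.2 RPKM with vehicle, 68.2 and 54.5 with PTH and 31.0 and 29.8 with YKL-05-093. The lower PTH library was 2.00-fold the higher vehicle library. The log2 fold change for PTH was 1.49 ± 0.25 (SE), with an adjusted p of 0.0279 by limma. Under the same 3 settings its adjusted p was 0.207, 0.0802 and 0.0642, and the call was lost. The ratio of Bglap2 to Bglap stayed between 2.15 and 2.62 in the 6 libraries, and the part of reads that fit both genes in this was not tested. Bglap3, the third copy, had 1 to 5 reads per library, or 0.0182 to 0.0948 RPKM, where 3 reads correspond to 0.0422 to 0.0674 RPKM. No difference in Bglap3 was detectable at this depth, and no fold change is given.

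Mgp, the inhibitor of calcification, had the largest log2 fold change for PTH among the 8 tested members. It had 132 and 196 RPKM with vehicle, 715 and 669 with PTH and 192 and 194 with YKL-05-093. Both PTH libraries were at least 3.41-fold the level of either vehicle library, and the YKL-05-093 libraries lay within the vehicle range. The log2 fold change for PTH was 2.10 ± 0.22 (SE), with an adjusted p of 0.00522 by limma, and of 0.0772 with no filter on low values. Mgp is also a gene of cartilage, and the summed chondrocyte markers were 2.16 to 2.71 RPKM in vehicle, 3.44 to 3.77 after PTH and 3.69 to 3.91 after YKL-05-093. Among them Col2a1, the collagen II chain of cartilage, had 0.625 and 0.577 RPKM with vehicle, 1.71 and 1.54 with PTH and 0.730 and 0.771 with YKL-05-093, so that it was highest in the PTH libraries, as Mgp was. Sox9, the transcription factor of chondrocytes, had 1.69 and 1.16 RPKM with vehicle, 1.36 and 1.57 with PTH and 2.65 and 2.36 with YKL-05-093, and Acan was at 0 to 0.0189 RPKM. The part of such cells in the Mgp result was not tested.

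Sp7 moved the other way. It had 46.0 and 45.5 RPKM with vehicle, 12.2 and 11.1 with PTH and 22.4 and 29.6 with YKL-05-093. The vehicle libraries differed by 0.02 on the log2 scale, closer than for all but 2.93% of the tested genes, and the PTH libraries were at 0.241 to 0.267 of them. The log2 fold change for PTH was -1.97 ± 0.16 (SE), with an adjusted p of 0.00189 by limma, and of 0.0555 with no filter on low values.

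Runx2, which acts upstream of Sp7, had 19.5 and 13.01 RPKM with vehicle, 7.87 and 7.02 with PTH and 11.6 and 12.6 with YKL-05-093. Both PTH libraries lay below every other library, but the vehicle libraries were 1.502-fold apart. The log2 fold change for PTH was -1.09 ± 0.22 (SE) with an adjusted p of 0.0624 by limma, so Runx2 was not called. Without vehicle replicate 2 it was called, at -1.38 and an adjusted p of 0.00555, and without vehicle replicate 1 the change was -0.80, under the 2-fold limit, with an adjusted p of 0.00971. With 1 fit of all 6 libraries the adjusted p was 0.0194, and with voom on the reads recovered from the RPKM values it was 0.0497.

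The remaining matrix proteins did not pass the test for PTH. Ibsp had 292 and 314 RPKM in vehicle and 443 and 332 after PTH (log2 fold change 0.34, 95% interval -0.17 to 0.85, adjusted p 0.601 by limma). Spp1 had 63.1 and 77.3 RPKM in vehicle and 90.8 and 75.8 after PTH (0.25, interval -0.20 to 0.69, adjusted p 0.675). Sparc had 761 and 980 RPKM in vehicle and 1316 and 1108 after PTH (0.48, interval -0.10 to 1.07, adjusted p 0.491). The Spp1 libraries overlapped between the conditions, and those of Ibsp and Sparc did not. All 3 intervals include 0, and that of Sparc also includes 2-fold.

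**Figure D2:**
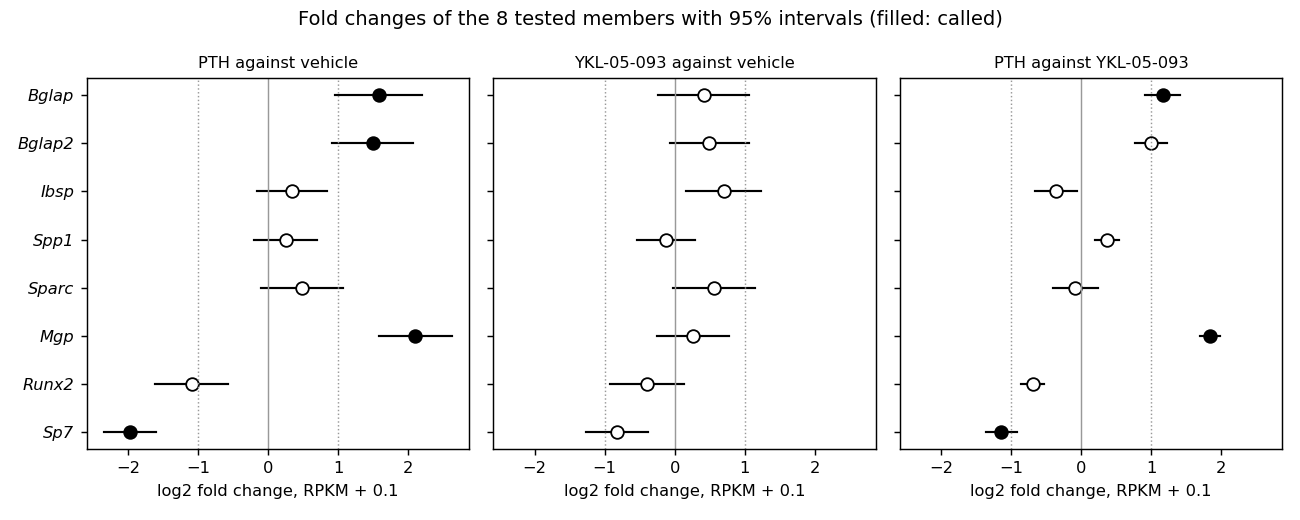
Log2 fold change (x axis, on the RPKM + 0.1 scale) of the 8 tested members (y axis) in the 3 comparisons, with 95% intervals from limma; filled points were called and dotted lines mark 2-fold. Bglap, Bglap2 and Mgp are called higher and Sp7 lower after PTH, and no member is called after YKL-05-093.

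YKL-05-093 gave no call among the members. By limma 0 of the 8 tested members were called against vehicle, where 0.666% of all 14255 genes tested were called, and voom on the recovered reads also called 0. At an unadjusted p under 0.05 there were 2 members, Ibsp and Sp7, against 8.67% of all genes. The libraries did not overlap for 5 of the 8, against 37.8% of all genes.

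Sp7 was lower in both YKL-05-093 libraries than in either vehicle library, at 26.0 ± 5.12 RPKM (SD, n = 2) against 45.8 ± 0.348. The log2 fold change was -0.83 ± 0.19 (SE), with an adjusted p of 0.159 by limma and, with 1 fit of all 6 libraries, of 0.0416 but still under the 2-fold limit. Ibsp stood at 414 and 587 RPKM, above both vehicle libraries, with a log2 fold change of 0.70 ± 0.23 (SE) and an adjusted p of 0.387. The YKL-05-093 libraries of Ibsp were 1.42-fold apart, wider than for 99.1% of 4444 genes that averaged 1000 reads or more, and its PTH libraries were 1.34-fold apart, wider than for 99.55% of them.

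For the other members the intervals against vehicle were wide. Bglap changed by 0.41 on the log2 scale (95% interval -0.23 to 1.06), Bglap2 by 0.49 (-0.07 to 1.06), Mgp by 0.26 (-0.25 to 0.77) and Sparc by 0.57 (-0.02 to 1.15). Spp1 changed by -0.12 (-0.54 to 0.29) and Runx2 by -0.40 (-0.92 to 0.13). The adjusted p-values of these 6 genes ran from 0.597 to 0.903 by limma. Their direction depended on 1 library in some cases: the Spp1 change was 0.02 without vehicle replicate 2, and the Mgp change was -0.02 without vehicle replicate 1. Without vehicle replicate 2, the adjusted p-values of Bglap (0.0492), Bglap2 (0.0339), Mgp (0.0267) and Runx2 (0.0281) fell under 0.05 with changes under 2-fold.

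The direct comparison tests where the responses to both agents differed. For PTH against YKL-05-093, 3 of the 8 tested members were called, Bglap and Mgp higher and Sp7 lower with PTH. Of all 14255 genes tested, 1.21% were called, 0.737% higher and 0.470% lower. By the adjusted p alone there were 6, both Bglap and Bglap2 among them, against 9.97% of all genes. Any pair of the 3 comparisons shares 2 libraries, so none is independent of the others.

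Mgp was 3.59-fold higher with PTH than with YKL-05-093, with a log2 fold change of 1.84 ± 0.07 (SE) and an adjusted p of 7.41e-11 by limma. For Mgp the adjusted p was 0.00603 with 1 fit of all 6 libraries and 0.0222 with no filter on low values. Bglap was 2.25-fold higher (1.16 ± 0.12, adjusted p 4.55e-06), and 1 fit of all 6 libraries gave an adjusted p of 0.0859 for the same change. Bglap2 was 2.01-fold higher by the means, but its log2 fold change of 0.999 ± 0.108 fell just short of the limit of 1 (adjusted p 9.69e-06), and it was called with voom. For Bglap2 the adjusted p was 0.11 with 1 fit of all 6 libraries and 0.0669 with no filter on low values. Sp7 was at 0.447 of its YKL-05-093 mean with PTH (-1.14 ± 0.10, adjusted p 1.45e-06), and without YKL-05-093 replicate 2 the change was -0.94 and under the limit. With no filter on low values the adjusted p for Sp7 was 0.0755. Runx2 was lower with PTH by less than 2-fold (-0.69 ± 0.07, adjusted p 8.81e-06), and Spp1 was higher by less than 2-fold (0.37 ± 0.08, adjusted p 0.00678). For both, the adjusted p with 1 fit of all 6 libraries was above 0.05, at 0.225 for Runx2 and 0.555 for Spp1. Ibsp (-0.36, 95% interval -0.66 to -0.06, adjusted p 0.138) and Sparc (-0.08, interval -0.40 to 0.24, adjusted p 0.82) did not pass the test.

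Each PTH call depended on having both PTH libraries in the fit. With either left out, the lone PTH library was assumed to vary like the other group, and 0 members were called in either comparison with PTH (14 and 14 genes in all against vehicle, 0 and 0 against YKL-05-093). Against vehicle the adjusted p was then 0.35 and 0.322 for Bglap, 0.408 and 0.265 for Bglap2, 0.182 and 0.156 for Mgp and 0.108 and 0.141 for Sp7, without PTH replicates 1 and 2. The changes themselves stayed between 1.33 and 1.65 for both osteocalcin genes, at 2.05 and 2.15 for Mgp and at -2.04 and -1.90 for Sp7. For a single gene, an exact permutation test of 2 against 2 cannot give a p below 0.333.

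**Figure D3:**
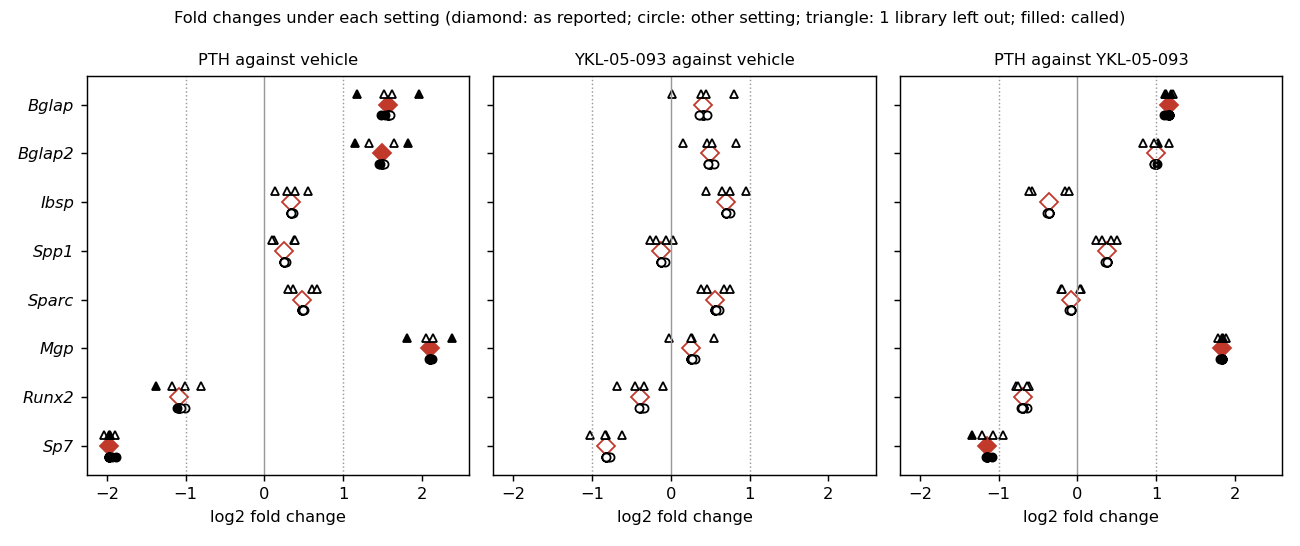
Log2 fold change (x axis) of the 8 tested members (y axis) in the 3 comparisons under every setting, with a diamond for the value as reported, circles for other settings and triangles for fits without 1 library; filled symbols were called. Mgp and Sp7 keep changes near 2 and -2 on the log2 scale after PTH in every setting, while the Mgp and Spp1 changes after YKL-05-093 lie on both sides of 0.

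Ratios within a library do not depend on the library total. Mgp over Bglap2 was 7.72 and 7.20 with vehicle, 10.5 and 12.3 with PTH and 6.19 and 6.49 with YKL-05-093, and both PTH ratios lay above those of the other libraries. Ibsp over Spp1 was 4.63 and 4.06 with vehicle, 4.88 and 4.37 with PTH and 6.73 and 8.78 with YKL-05-093, where it was above all other libraries. Sp7 over Runx2 was 2.36 and 3.50 with vehicle, 1.55 and 1.58 with PTH and 1.93 and 2.35 with YKL-05-093, and was lowest with PTH.

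**Figure D4:**
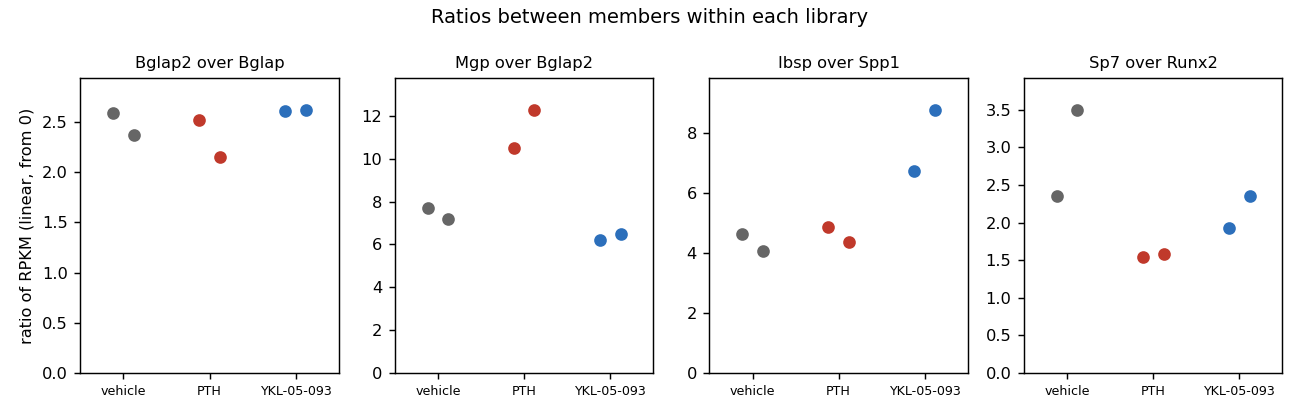
Ratio of the RPKM of 1 member to another within each library (points), on linear axes from 0, for 4 pairs. Bglap2 over Bglap stays between 2.15 and 2.62, Mgp over Bglap2 is highest with PTH, Ibsp over Spp1 is highest with YKL-05-093, and Sp7 over Runx2 is lowest with PTH.

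Over the 6 libraries, Bglap and Bglap2 had a Pearson r of 0.99 on the log2 scale, Bglap and Mgp of 0.98, and Runx2 and Sp7 of 0.93, while Bglap and Runx2 had an r of -0.98. Ibsp followed Sparc (0.88) more than Spp1 (0.02), its neighbour on chromosome 5. For the r of Bglap and Runx2, the vehicle libraries also lay in opposite directions (6.61 and 11.5 RPKM against 19.5 and 13.01). These r values are descriptions over 6 libraries in 3 conditions, which share the condition means. By the same measure the genes most like each member were Nsg1, Hfe and Baiap2 for Bglap, and Isy1, Hfe and Tssc1 for Bglap2, with Hfe in both. Those most like Mgp were Fth1 (the ferritin heavy chain, 260 to 444 RPKM), Smim3 and Cited1. Those most like Runx2 were Jak2, Mef2c and Arhgef6, and those named for Sp7 were Irx3 and Slc25a12. For Ibsp the 3 were Lrpap1, Ano1 and Ccdc85c, for Spp1 Fam45a, Mitd1 and Sdhaf2, and for Sparc Zfp691, P2rx4 and Sap30l. The r of these genes with their member ran from 0.98 to 1.00.

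Around the members, 92 other genes of 7 lists of related proteins were examined, of which 79 were tested. After PTH 2 of the 79 were called higher and 4 lower, after YKL-05-093 1 higher and 1 lower, and for PTH against YKL-05-093 1 higher and 3 lower. These calls made up 7.59%, 2.53% and 5.06% of the 79, beside 1.91%, 0.666% and 1.21% of all genes tested. In the same order, the median log2 fold change of the 79 was -0.04, -0.02 and -0.03, beside -0.03, -0.04 and 0.01 for all genes tested. The lists were chosen with earlier results of these data known. Among the called genes, Vdr, Hdac4 and Mef2c are ones whose change after PTH the study itself reports. The higher shares called are therefore no test of the lists.

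Most of the called genes were partners and regulators of Runx2 and Sp7, of which 32 of 34 were tested. After PTH 2 of them rose and 3 fell, beside 1.09% higher and 0.813% lower of all genes tested, with a median log2 fold change of -0.24. Vdr, the vitamin D receptor, had 4.41 and 3.31 RPKM with vehicle, 59.6 and 56.9 with PTH and 54.7 and 54.9 with YKL-05-093. It rose with both agents, by 3.90 (adjusted p 0.000456 by limma) and 3.81 (0.00121) on the log2 scale, and was the 1 gene of this list called after YKL-05-093. Hdac4, a class IIa histone deacetylase that represses Runx2 and MEF2 factors, rose after PTH by 1.66 (adjusted p 0.0173). It had 10.9 and 6.74 RPKM with vehicle, 28.1 and 26.6 with PTH and 18.3 and 18.5 with YKL-05-093. After YKL-05-093 it thus stood above both vehicle libraries but was not called. The symbol Hdac4 is listed more than once, and 1 entry was used. Dlx3, a homeobox factor of osteoblasts, fell after PTH by 1.94 on the log2 scale (adjusted p 0.00714), from 5.73 and 4.82 RPKM to 1.56 and 1.07. Mef2c (-1.43) and Runx1 (-1.32), which also fell, are transcription factors of bone or blood cells. For PTH against YKL-05-093, Hes1, a target of Notch, was higher with PTH (1.52), and Runx1 (-1.498), Dlx3 (-1.38) and Zbtb16 (-1.07) were lower. Cbfb, which encodes the partner subunit of Runx2, had 150 and 136 RPKM in vehicle and 106 and 106 after PTH (-0.43, adjusted p 0.356).

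The other lists held few calls. The list of Gla proteins and vitamin K-dependent carboxylation also held the kinase gene Fam20c and the protease gene Furin. Of its 8 tested genes other than the members, 0 were called by limma in any of the 3 comparisons. In each comparison 1 of the 8 stood at an unadjusted p under 0.05. This was Fam20c in the comparisons with vehicle and Furin for PTH against YKL-05-093. At that p stood 13.3% of all genes for PTH, 8.67% for YKL-05-093 and 22.3% for PTH against YKL-05-093. The carboxylase gene Ggcx had 13.3 and 11.8 RPKM in vehicle and 13.3 and 12.3 after PTH. Of 17 tested genes of other bone matrix, Thbs1 (thrombospondin 1) was called, lower after PTH by 1.75 and after YKL-05-093 by 1.705 on the log2 scale. Its mean was 53.9 ± 15.4 RPKM (SD, n = 2) with vehicle, 15.7 ± 0.937 with PTH and 16.2 ± 1.14 with YKL-05-093. Col1a1, the collagen I chain, stood at 389 and 259 RPKM in vehicle and 430 and 371 after PTH (0.33, adjusted p 0.693). Dmp1, the 1 tested member of the SIBLING family beside Ibsp and Spp1, had 0.376 to 1.15 RPKM and was not called. No gene was called among 4 other genes of the SPARC family, where Fstl1, the highest, had a log2 fold change of 0.27 after PTH and Sparcl1 one of 0.000231. No gene was called either among 9 small leucine-rich proteoglycans (with 2 for PTH, 1 for YKL-05-093 and 4 for PTH against YKL-05-093 at an unadjusted p under 0.05) or among 8 integrin and Cd44 receptors of Spp1 and Ibsp (3, 0 and 2). Runx1, Zbtb16, Cbfb, Ggcx, Fam20c, Furin and Col1a1 were named after their values were seen. Bgn and Fmod, the proteoglycan genes with the highest means over the 6 libraries, had log2 fold changes of 0.07 and 0.37 after PTH, and the integrin subunit genes Itgb1 and Itgb5 of -0.15 and -0.17.

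**Figure D5:**
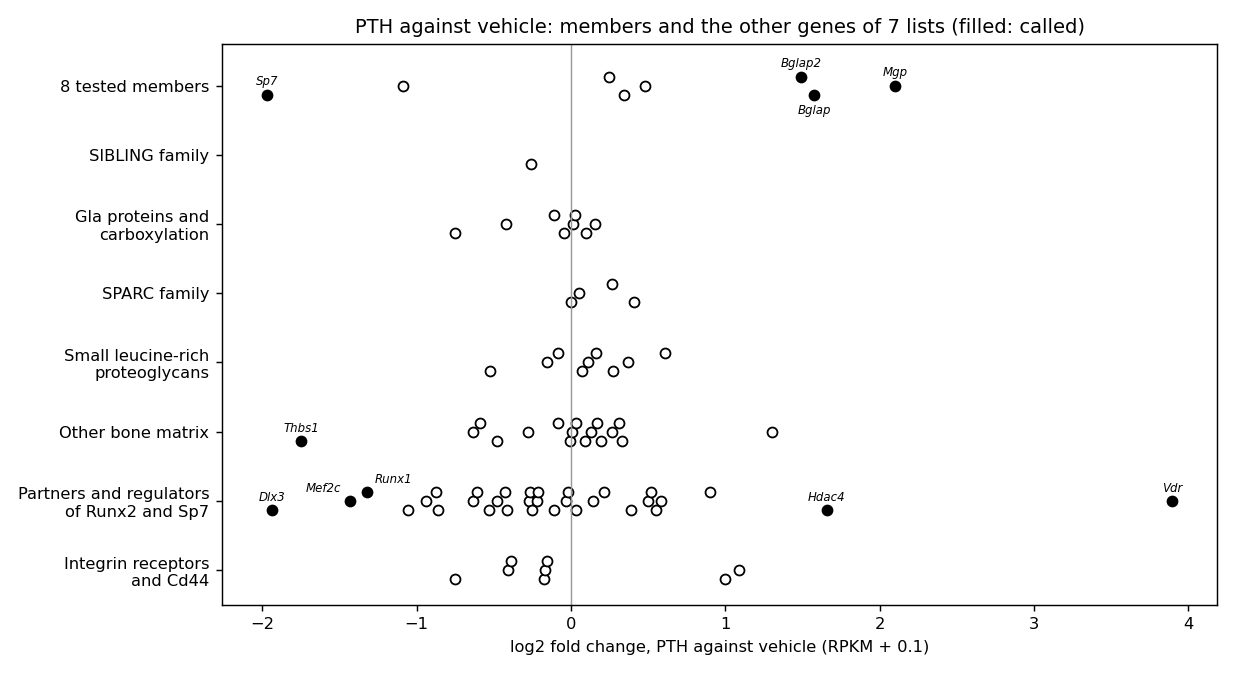
Log2 fold change for PTH against vehicle (x axis, on the RPKM + 0.1 scale) of the 8 tested members and of the other tested genes in each of 7 lists (y axis); filled points were called and carry their names. Vdr and Hdac4 lie to the right and Dlx3, Mef2c, Runx1 and Thbs1 to the left among the lists, beside Mgp, Bglap, Bglap2 and Sp7 among the members.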

How the data were processed

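RNA-seq of 6 Ocy454 libraries was analysed. Per the labels and the study's methods, the authors depleted ribosomal RNA, built directional libraries, aligned reads with STAR to mm10, counted them with HTSeq on Ensembl gene models and deposited RPKM values, 1 column per library; CASAVA 1.7 is named in the submitters' processing notes. RPKM are scaled by the library total only, with no further adjustment between libraries. Reads were worked back from the exact steps between RPKM values, up to a whole factor per gene, for all 26214 genes above 0. The step of a gene was chosen to make its reads whole, so whole reads (within 0.05) are no check. Library totals were inferred from the same reads, so a sum of reads at 99.7% of them is no check either. The length behind the values equalled the length in the GENCODE M21 annotation for 36.0% of these genes. The recovered reads served depth, the floor of 3 reads, the modelling of spread and voom.

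The main test was limma 3.58.1 (R 4.3.3) on log2(RPKM + 0.1), 1 fit per comparison, with the prior spread following the mean log2(reads + 0.5), a filter at 0.5 RPKM in 2 or more libraries (14264 of 39179 genes), and Benjamini-Hochberg adjustment over all genes tested. Recovery and test were tried on simulated data. A fold change on this scale understates that of low genes. Sequences were compared with Biopython 1.88. The members and lists were chosen with earlier results of these data known. Named were the 9 members, up to 4 called genes per list (else the 2 highest), and the 3 genes of at least 50 reads most like each member. Alternatives were other pseudocounts, filters, spread models, scaling, voom, a replicate block, no fold limit and leaving out each library. Some genes that this rule or the lists would name are not reported here.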

Additional observations from a re-analysis of the deposited data

How the results depend on the processing

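As reported, the comparisons of PTH and of YKL-05-093 with vehicle called 272 and 95 genes, and PTH against YKL-05-093 called 172, with 4, 0 and 3 members among them. With no filter on low values, limma called 0 genes and 0 members for PTH and 0 genes for YKL-05-093 (2343 and 1734 genes at an unadjusted p under 0.05), when 25085 and 24944 genes were tested. When the spread followed the mean value, 160 and 6 genes were called, and 2 members for PTH. Centring libraries on their median left 2 members for PTH. A pseudocount of 1 RPKM gave 55 genes for YKL-05-093 and 98 for PTH against YKL-05-093, and a filter at 0.1 RPKM gave 57 for YKL-05-093. With 1 fit of all 6 libraries, 175 genes were called for YKL-05-093 and 103 for PTH against YKL-05-093. Without a limit on the fold change, 1421 genes and 6 members passed for PTH against YKL-05-093. Where not stated, the cause was not tested. The replicate numbers only name libraries: same-numbered libraries did not deviate together (r of -0.03, -0.05 and -0.05 over 14264 genes), and a fit with the replicate number as a block called 440 genes for PTH, 215 for YKL-05-093 and 196 for PTH against YKL-05-093, with 5, 0 and 3 members. Leaving out 1 library gave between 14 and 669 genes and 0 to 5 members for PTH, 11 to 321 genes and 0 members for YKL-05-093, and 0 to 155 genes and 0 to 4 members for PTH against YKL-05-093. The direction of a member turned in 4 such fits: Spp1 after YKL-05-093 (0.0232 without vehicle replicate 2, range -0.269 to 0.0232), Mgp after YKL-05-093 (-0.0241 without vehicle replicate 1, range -0.0241 to 0.545), and Sparc for PTH against YKL-05-093 (0.0420 without PTH replicate 2 and 0.0289 without YKL-05-093 replicate 2, range -0.207 to 0.0420). Bglap and Bglap2 lost the call for PTH with no filter (adjusted p 0.212 and 0.207), with the spread on the mean value (0.0782 and 0.0802) and with centring (0.0699 and 0.0642), and Mgp (0.0772) and Sp7 (0.0555) with no filter. With 71 to 688 reads per library, Bglap and Bglap2 carry more counting error than the other tested members.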
